A study of Mus musculus with 24 samples.

Results

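Described here are 7 genes of selenium transport and selenoprotein synthesis, chosen by name: Sepp1, Sepw1, 2700094K13Rik (the selenoprotein now called Selenoh), Sephs1, Sephs2, Scly and Secisbp2. They were found on the arrays by an exact match of the gene name, which gave 10 probes for the 7 genes out of 41174 probes and 27962 gene names. The probe with the highest mean intensity over all arrays stood for a gene, and the other probe of Sephs1, Scly and Secisbp2 is given beside it. The genes were picked by name and not by a measured value, although they were proposed with earlier results of these data known. Only the choice of the main probe used measured intensity.

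Selenium reaches proteins as selenocysteine, an amino acid that is built on its own transfer RNA and inserted at a UGA codon that would otherwise stop translation. The liver is the hub of this economy. It takes up dietary selenium, packs it into selenoprotein P (Sepp1, now Selenop) and secretes that protein into the plasma, from which other tissues take it up. Inside cells, selenocysteine lyase (Scly) frees selenium from old selenocysteine, selenophosphate synthetase 2 (Sephs2, itself a selenoprotein) activates it, and Secisbp2 binds the hairpin in selenoprotein mRNAs that recruits the insertion machinery. The mRNAs of some selenoproteins, Sepw1 and Gpx1 among them, are known to be sensitive to selenium supply.

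Whole colon and whole liver of 12 female C57BL/6 mice aged 12 weeks were measured. All dams ate HF-low, which combined high fat with little selenium and folate, from 7 days before mating through gestation and lactation. At weaning, at about 28 days, 6 daughters stayed on that diet (HF-low-low) and 6 were moved to a high-fat diet in which both nutrients were sufficient (HF-low-suf). Selenium and folate changed together, so the effects of the 2 nutrients cannot be told apart, and the labels do not give the litters. Each of the 24 arrays carried Cy3-labelled RNA of 1 tissue of 1 mouse beside a Cy5-labelled reference, by its label a pool of colon and liver RNA from all mice. A value is the log2 ratio of sample to pool for a probe, so 0 means a signal equal to that of the pool after normalization, and levels are compared between samples and never between genes.

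The median Cy3 signal of an array lay between 3.78 and 7.20 times its background, and from 26.1% to 71.9% of its spots passed Feature Extraction's test for a Cy3 signal well above background. The tissues matched their labels: all 6 hepatocyte markers were higher in liver, and all 6 colon epithelium and all 6 smooth muscle markers were higher in colon. All 6 adipose markers were higher in colon as well. All 3 erythroid markers were higher in liver, by 2.84 to 3.50 on the log2 scale, and 3 of 6 skeletal muscle markers were, by 0.78 to 0.89. The part of these cell types in the tissue differences was not tested. Among the livers, HF-low-suf replicate 1 had the highest adipose marker mean (3.23, with a group median of −1.02) and HF-low-suf replicate 2 the highest skeletal muscle marker mean (−2.50, with a group median of −4.21). The colon of HF-low-suf replicate 5 and the liver of HF-low-suf replicate 4 had the brightest reference channel, with a median Cy5 signal of 18.1 and 12.8 times background. In that liver 8.75% of spots were flagged as outliers and left out, beside 0.27% to 0.77% on the other arrays. Some probes lay on the same side of the pool in both tissues. Of 24434 probes measured and well above background in Cy5 on all arrays, 315 (1.29%) had a mean more than 2 log2 units below the pool in both tissues, and 1 had a mean as far above it in both. None of the 7 genes was among them, although Sepw1 (−0.26 in colon and −0.47 in liver) and 2700094K13Rik (−0.57 and −1.03) lay below the pool in both tissues. Of the other selenium genes described below, Gpx3 (−3.10 in colon and −3.05 in liver), Dio3 (−3.93 and −3.5) and Lrp2 (−4.35 and −3.57) had means that far below it in both. So did all 6 skeletal muscle markers. Every sample was labelled with Cy3 and every pool with Cy5, so a dye effect of a probe and the makeup of the pool cannot be told apart, and distances from the pool are not read as levels. In bulk tissue, fewer cells of a type and less RNA per cell cannot be told apart.

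Each probe is a 60-base oligonucleotide, and 4 are shown: those of 2700094K13Rik and Sepw1, which hold a recognisable element, and both probes of Scly, the gene with a second probe whose difference between the tissues was largest. Positions follow the array annotation (mm7). The 2700094K13Rik probe lies at chr2:84513732-84513791 on the minus strand and ends on a stop codon, which is in capitals, after an open frame of 19 codons. The Sepw1 probe lies on an unplaced piece of chromosome 7, and the last 30 bases open with a polyadenylation signal, AATAAA, in capitals. The 2 Scly probes, of which the last 30 bases are given, lie on the plus strand at chr1:91228267-91228326 (brighter probe) and chr1:91218341-91218400 (dimmer probe).
2700094K13Rik: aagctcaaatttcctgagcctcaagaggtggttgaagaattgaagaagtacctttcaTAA
Sepw1: AATAAAgtttggatgaggtaacccaaaaaa
Scly, brighter probe: agtctttgccaaagtgggaaatctgatcat
Scly, dimmer probe: ccaagtaaacattcaaactaaagtctgtag

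Upstream regions are shown for the genes that differed most between the tissues. They are the 250 bases before the transcription start in RefSeq (GRCm38.p6), where all 7 genes matched by current symbol, and capitals mark matches on either strand to TATAAA (the TATA box), TGTTTAC (the core bound by forkhead factors), CCAAT or GGGCGG (the GC box). These motifs do not overlap one another here. For Sepp1, the most downstream of 3 listed starts is shown.
Sepp1, chr15:3270727-3270976, plus strand: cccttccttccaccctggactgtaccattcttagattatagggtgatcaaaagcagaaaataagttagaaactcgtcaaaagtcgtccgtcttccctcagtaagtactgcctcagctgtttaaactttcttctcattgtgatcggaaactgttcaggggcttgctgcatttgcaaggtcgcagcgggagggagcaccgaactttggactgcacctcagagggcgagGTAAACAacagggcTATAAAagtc
Sephs2, chr7:127274060-127274309, minus strand: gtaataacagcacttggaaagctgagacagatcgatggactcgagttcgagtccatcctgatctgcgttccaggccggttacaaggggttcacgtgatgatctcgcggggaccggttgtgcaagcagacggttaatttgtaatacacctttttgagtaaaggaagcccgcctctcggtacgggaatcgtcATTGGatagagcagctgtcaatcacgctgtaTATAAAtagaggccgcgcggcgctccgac
Scly, chr1:91298088-91298337, plus strand: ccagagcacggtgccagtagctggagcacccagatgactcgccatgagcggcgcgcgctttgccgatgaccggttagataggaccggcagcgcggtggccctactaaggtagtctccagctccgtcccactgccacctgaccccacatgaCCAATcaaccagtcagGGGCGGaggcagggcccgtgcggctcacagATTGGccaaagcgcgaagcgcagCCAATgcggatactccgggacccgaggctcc

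The printed Sepp1 window held 1 TATAAA and 1 TGTTTAC, the latter as its reverse complement, and the windows of the other two Sepp1 starts held none of the 4 motifs. Sephs2 had 1 TATAAA and 1 CCAAT, and Scly had 3 CCAAT and 1 GGGCGG but no TATAAA. Of 32851 windows of the same length, 12.4% held TATAAA, 3.17% TGTTTAC, 33.8% CCAAT and 32.7% GGGCGG. The windows of the other genes held none of the 4 motifs (Sepw1), 1 CCAAT and 1 GGGCGG (2700094K13Rik), 1 GGGCGG (Secisbp2), and, over 2 starts of Sephs1, 2 GGGCGG at one and 1 TGTTTAC at the other. G and C made up 47.6% of the printed Sepp1 window, 52% of that of Sephs2 and 65.2% of that of Scly. Over all windows of the 7 genes the share ran from 40.4% at another Sepp1 start to 76% at a Sephs1 start, with 52.4% as the median of all windows.

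The first comparison asked how the 7 genes differ between liver and colon. Sepp1, Scly and Sephs2 were 6.40-fold, 6.15-fold and 4.63-fold higher in liver, and Secisbp2 was 1.5-fold higher. Sephs1, Sepw1 and 2700094K13Rik did not pass the threshold, an adjusted P below 0.05 and a fold change above 1.5. So 4 of 7 genes were called, all of them higher in liver, where 11.4% of all probes were called higher in liver and 12.2% lower. Among the 19079 probes well above background on at least 6 arrays of a tissue, a filter that all 7 genes passed, 45.6% were called and 21.1% were called higher. The median difference of the 7 genes was 0.59 on the log2 scale, and that of all probes 0.02. The test was limma's, fitted to the 24 arrays together with mouse as a random block and with Benjamini-Hochberg adjustment over all probes.

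Sepp1 encodes the plasma selenium carrier. In colon, the log2 ratio of the HF-low-low arrays ranged from −1.69 to −0.90 with a median of −1.22, and that of the HF-low-suf arrays from −1.45 to −0.83 with a median of −1.14. In liver, the range was 1.15 to 1.62 with a median of 1.41 on HF-low-low and 1.29 to 1.81 with a median of 1.51 on HF-low-suf. Every liver lay above every colon, by 2.29 to 3.30 within a mouse. How many of all probes separate the tissues without overlap was not counted, so this is not read as particular to the gene. The fitted difference was 2.68 (SE 0.09, adjusted P = 3.8e-19), and liver was higher in 12 of 12 mice (two-sided exact sign-flip test, P = 0.000488, the smallest that 12 mice allow). This spot reached at most 37.9% of the scanner ceiling in Cy3 and 61.7% in Cy5, and none of its spots was flagged as saturated. In the Cy3 channel alone the difference was 1.44 (2.72-fold). That channel was read after loess and a quantile normalization between arrays, both of which still use the signal of the pool. The Sepp1 signal of the pool itself was lower on liver arrays than on colon arrays, by 0.88 on the log2 scale relative to each array's median Cy5 signal, where that of the other 6 genes differed by −0.04 to 0.15. The part of this in the Sepp1 ratio was not tested.

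Scly, which recycles selenium from selenocysteine, showed the same separation. Colon values were −1.51 to −0.96 (median −1.33) on HF-low-low and −1.45 to −0.96 (median −1.23) on HF-low-suf. Liver values were 1.09 to 1.53 (median 1.38) on HF-low-low and 1.06 to 1.54 (median 1.42) on HF-low-suf. No liver overlapped a colon, and the difference was 2.62 (SE 0.08, adjusted P = 5.1e-20), higher in liver in 12 of 12 mice. Across replicates Scly was steady in liver: the SD within a diet, 0.17, was at the 13.8th percentile of the 9663 probes well above background, and not left out as outliers, on all 12 livers, and that of Sepp1, 0.18, at the 17.9th.

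The second, dimmer Scly probe was also higher in liver in 12 of 12 mice, with a measured difference of 1.40 (2.65-fold, SE 0.13, adjusted P = 1.2e-09). The dimmer probe was well above background on 12 of 12 livers but on only 5 of 12 colons, 1 on HF-low-low and 4 on HF-low-suf. Its colon level was thus near background, so the size of its difference is not set against that of the brighter probe.

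Sephs2 makes selenophosphate, the selenium donor for selenocysteine. On HF-low-low, colons lay between −1.58 and −1.19 (median −1.41). On HF-low-suf, 5 colons lay between −1.34 and −0.95, and replicate 2 was at −2.67. In liver, 5 HF-low-low mice lay between 1.06 and 1.70, and replicate 3 was at −1.76, below 11 of the 12 colons. HF-low-suf livers ranged from 0.00 to 1.46 with a median of 0.85. The tissues thus overlapped through 1 liver, and liver was higher in 11 of 12 mice (difference 2.21, SE 0.27, adjusted P = 9.1e-08, exact sign-flip P = 0.000977). Without the mice of HF-low-low replicate 3 and HF-low-suf replicate 2, the difference was 2.37 (5.16-fold).

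Sephs2 varied more between replicates than most genes. Its SD within a diet was 0.999 in liver, at the 99.2nd percentile of probes well above background on all livers, and 0.48 in colon, at the 92.1st percentile. Without its outlying array the SD was 0.461 in liver (89.7th percentile of the same probes on the same 11 arrays) and 0.156 in colon (12.7th percentile). That array was picked for its Sephs2 value, while the other probes kept their own outliers. A fall was thus built into the choice, and the lower percentiles are not read as steadiness. The 2 outlying arrays were also low for a common set of other probes. Of 9012 probes well above background on all 24 arrays, 49 besides Sephs2 lay at least 2 log2 units below the median of the other livers in HF-low-low replicate 3. In the colon of HF-low-suf replicate 2 there were 28, and all 28 were among the 49 (100% of the colon list and 57.1% of the liver list). The median over arrays was 2 such probes in liver and 0.5 in colon, but the arrays with many were not only these: the colon of HF-low-low replicate 1 had 39, and the livers of HF-low-suf replicates 3 and 2 had 32 and 19.

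The mean of those 28 probes was −4.18 in the liver of HF-low-low replicate 3, and it ranged from −2.53 to 1.44 in the other livers. The next lowest livers for the 28 probes, HF-low-suf replicates 3 (−2.53) and 2 (−1.73), were also the next lowest for Sephs2 (0.00 and 0.53). In colon the match was not complete: HF-low-low replicate 1 had a mean of −3.57, close to −3.52 in HF-low-suf replicate 2, but its Sephs2 value was −1.19, the highest of its group. The 28 probes were chosen for being low on these arrays, and their part in the Sephs2 values was not tested.

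**Figure D1:**
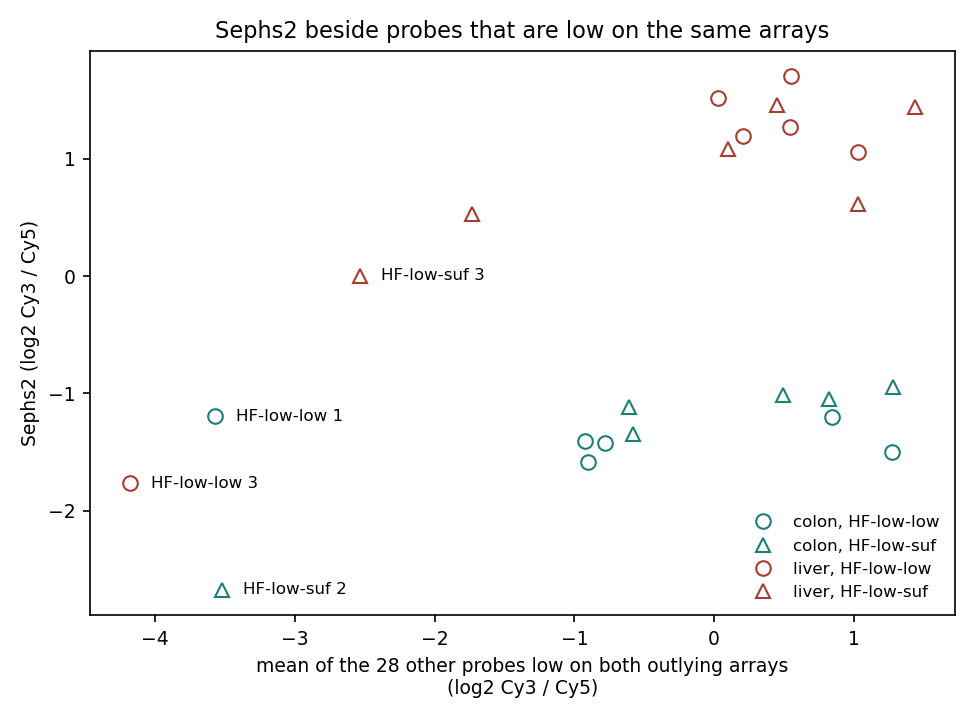
Sephs2 log2 ratio (vertical axis) against the mean log2 ratio of the 28 other probes that were low on both outlying arrays (horizontal axis), 1 point per array, coloured by tissue with circles for HF-low-low and triangles for HF-low-suf. The liver of HF-low-low replicate 3 (−4.18, −1.76) and the colon of HF-low-suf replicate 2 (−3.52, −2.67) stand apart from their groups, while the colon of HF-low-low replicate 1 (−3.57, −1.19) is low on the horizontal axis alone.

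Secisbp2, the factor that reads the insertion signal, was higher in liver in 12 of 12 mice by 0.05 to 1.06. Its medians were −0.36 and −0.25 in colon and 0.30 and 0.16 in liver, on HF-low-low and HF-low-suf respectively. Ranges overlapped, with the lowest liver at −0.18 and the highest colon at 0.01. The difference was 0.59 (SE 0.11, adjusted P = 4.4e-05), and its fold change sat on the 1.5-fold threshold. Leaving out any 1 of 7 mice (HF-low-low replicates 3, 4, 5 and 6 and HF-low-suf replicates 2, 3 and 6) took it below 1.5-fold, at 0.54 to 0.58, with an adjusted P of at most 0.000285. With median centring in place of loess the difference was 0.26 (adjusted P = 0.184). The second probe gave 0.55 (1.46-fold, adjusted P = 0.0069), higher in liver in 11 of 12 mice, and the probes differed by 0.0386 ± 0.578 (SD, n = 12 mice, exact sign-flip P = 0.845).

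Sephs1, a relative of Sephs2 that does not make selenophosphate from selenide, was not called. Its probe was dim, well above background on 7 of 12 colons and 6 of 12 livers. Colon medians were −0.12 and 0.01 and liver medians 0.33 and 0.25, on HF-low-low and HF-low-suf. Liver was higher in 10 of 12 mice, equal to colon within 0.01 in 1 and lower in 1, with a fitted difference of 0.35 (1.28-fold, SE 0.11, adjusted P = 0.0098). The difference was 0.13 under median centring and 0.15 averaged over all probes of the gene, so its size is uncertain. A second probe was well above background on 1 colon and on no liver, so no fold change is given for it.

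Sepw1 and 2700094K13Rik are small selenoproteins with a thioredoxin-like fold, and neither was higher in liver. Sepw1 medians were −0.13 and −0.23 in colon and −0.66 and −0.40 in liver, on HF-low-low and HF-low-suf, and the ranges overlapped widely. The fitted value was −0.21 (95% interval −0.45 to 0.03, adjusted P = 0.170), with liver higher in 5 of 12 mice. It was −0.57 under median centring (1.48-fold, adjusted P = 0.00037), and leaving out 1 mouse took it from −0.13 (HF-low-suf replicate 6) to −0.29 (HF-low-low replicate 1, adjusted P = 0.0378). For 2700094K13Rik, medians were −0.57 and −0.61 in colon and −1.06 and −0.96 in liver. Liver was lower in 11 of 12 mice, by 1.37-fold (difference −0.46, SE 0.11, adjusted P = 0.0018), which is short of 1.5-fold. Under median centring this gene was called, at −0.88 (1.84-fold).

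**Figure D2:**
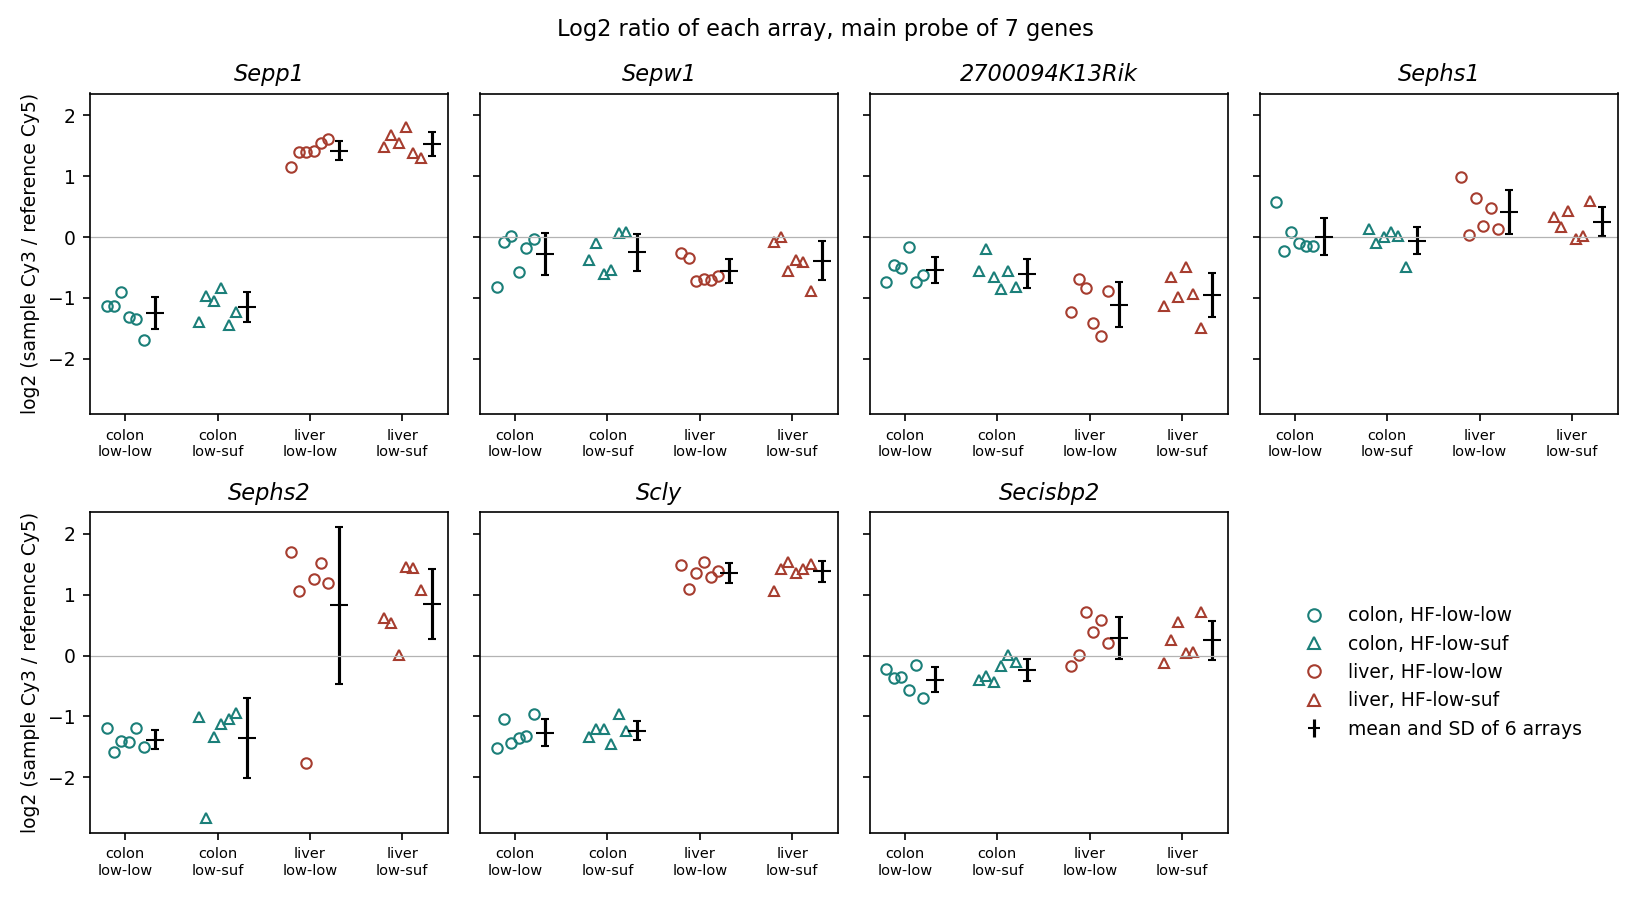
Log2 ratio of sample to reference pool (vertical axis) for the main probe of the 7 genes, 1 point per array in 4 groups of 6, with the mean and SD in black. Sepp1 and Scly separate liver from colon with no overlap, Sephs2 does so but for 1 liver at −1.76, and the diets overlap in every panel. Such separation was not counted over all probes.

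**Figure D3:**
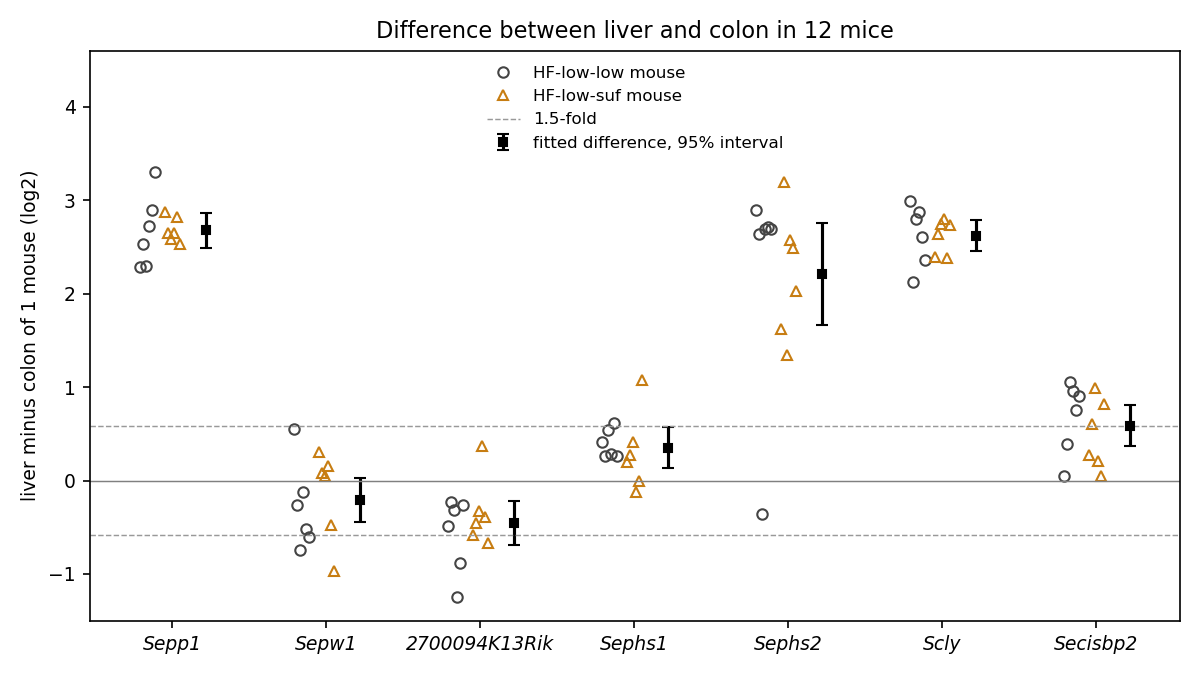
Liver minus colon of each of the 12 mice on the log2 scale (circles HF-low-low, triangles HF-low-suf), with the fitted difference and its 95% interval as black squares and dashed lines at 1.5-fold. The lowest mouse lies at 2.29 for Sepp1 and at 2.12 for Scly, and 1 HF-low-low mouse lies at −0.36 for Sephs2.

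Ordered by the signed tissue difference, from higher to lower in liver, Sepp1 (95% interval 2.49 to 2.87), Scly (2.45 to 2.79) and Sephs2 (1.66 to 2.76) had overlapping intervals. They were followed by Secisbp2 (0.37 to 0.80) and Sephs1 (0.13 to 0.58), which overlapped each other. Sepw1 (−0.45 to 0.03) and 2700094K13Rik (−0.69 to −0.22) came last. In the Cy3 channel alone, normalized as above, Scly (2.70) and Sephs2 (2.27) stood above Sepp1 (1.44). The place of Sepp1 thus depends on whether the ratio or the normalized Cy3 channel is read. These are differences between tissues, not levels.

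Other genes of the pathway were read from lists of 20 other selenoproteins, 12 factors of selenocysteine synthesis and insertion, and 6 genes of selenium uptake and metabolism, all of which had a probe. Among the selenoproteins, 7 were higher in liver, 2 lower and 11 not called, with a median difference of 0.08, beside 11.4% of all probes higher and 12.2% lower and 45.6% of the brighter probes called in either direction. Gpx1, the cytosolic glutathione peroxidase, was 5.15-fold higher in liver (2.37, SE 0.09, adjusted P = 1.3e-17) and Sepx1, which repairs oxidised methionine, 3.23-fold (1.69, SE 0.10, adjusted P = 4.6e-14). Gpx2, the glutathione peroxidase of the gut epithelium, was the lowest in liver (log2 difference −4.00, SE 0.16, adjusted P = 1.2e-17). Selm, a selenoprotein of the endoplasmic reticulum, was 14.9-fold lower (−3.90, SE 0.13, adjusted P = 4.9e-19). The other 5 that were higher in liver were Txnrd2, Dio1, Selo, Gpx4 and Selt.

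In the synthesis and insertion list, 2 were higher in liver, 2 lower and 8 not called (median 0.21), counts near the 11.4% and 12.2% of all probes and, at 4 of 12 called, under the 45.6% of the brighter ones. Eefsec, the elongation factor for selenocysteine, was 2.10-fold higher (1.07, SE 0.10, adjusted P = 6.3e-10). Sepsecs, which uses the selenophosphate made by Sephs2 to complete selenocysteine on its transfer RNA, was 1.70-fold higher (0.76, SE 0.11, adjusted P = 1.9e-06) on a dim probe, well above background on 6 of 12 colons and 8 of 12 livers. Rpl30, a ribosomal protein that also binds the insertion signal, was 1.86-fold lower in liver (−0.89, adjusted P = 1.3e-07), and nucleolin (Ncl) was 1.54-fold lower (−0.62, adjusted P = 0.00052).

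Of the 6 uptake and metabolism genes, 3 were higher in liver, 2 lower and 1 not called (median 0.36), a list too short to set against the 11.4% and 12.2% of all probes or the 45.6% of the brighter ones. Cth, which cleaves cystathionine and selenocystathionine, was 9.06-fold higher in liver (3.18, SE 0.11, adjusted P = 8.1e-19). Lrp2 (megalin), a kidney receptor for selenoprotein P, was 1.72-fold higher in liver (0.78, SE 0.23, adjusted P = 0.0086), although both tissues lay far below the pool (−4.35 in colon and −3.57 in liver), and Lrp1, named here although it was not among the 2 largest, was 1.61-fold higher. Selenbp1 and Selenbp2, which bind selenium without containing selenocysteine, were 2.49-fold and 2.36-fold lower in liver. Lrp8, the brain and testis receptor for selenoprotein P, was well above background on none of the 24 arrays.

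**Figure D4:**
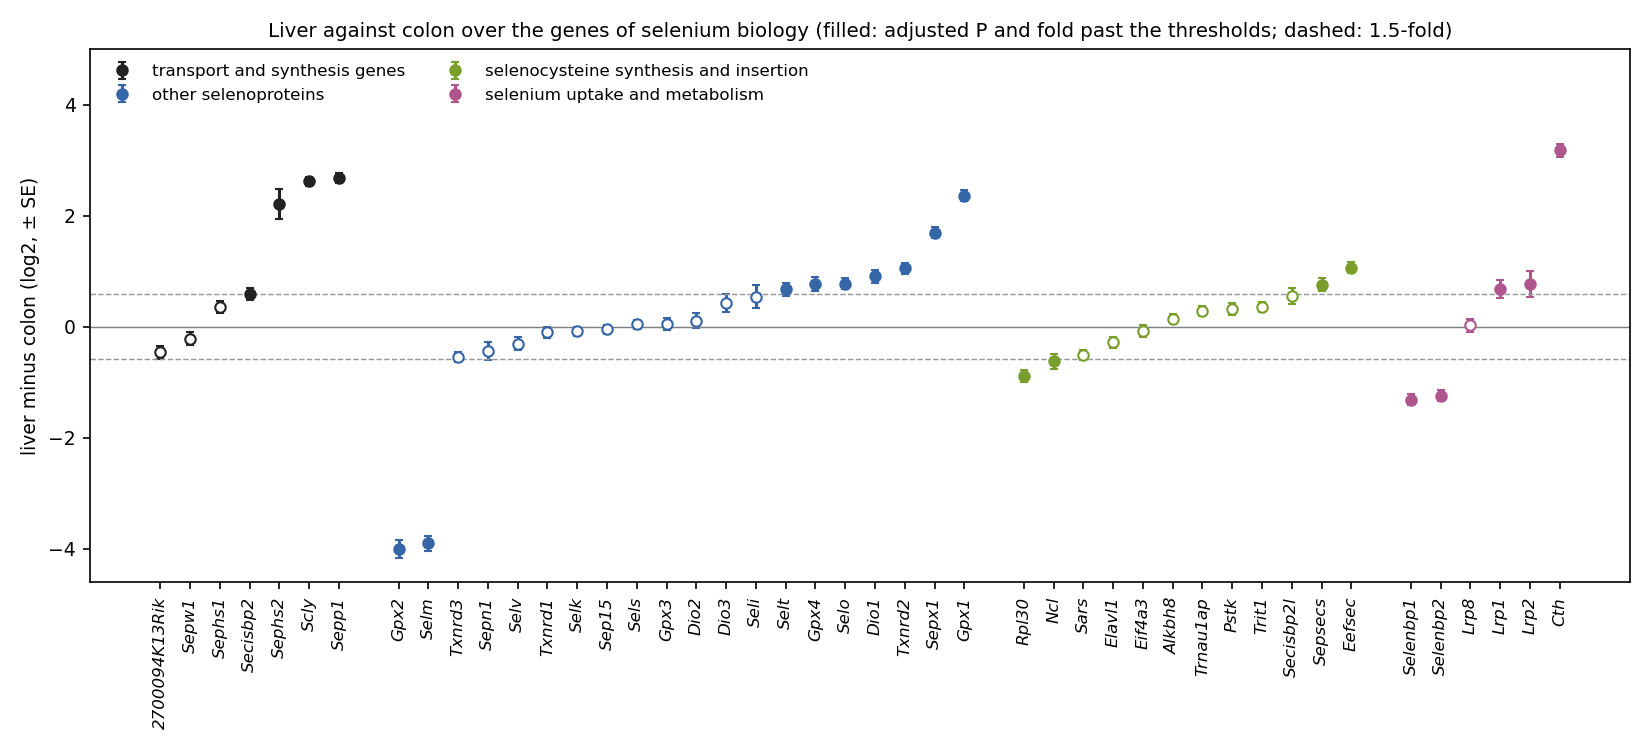
Liver minus colon on the log2 scale (± SE) for the 7 genes and for 38 other genes of selenium biology in 3 lists, ordered within each list, with filled points for genes past both thresholds and dashed lines at 1.5-fold. The 7 genes run from −0.46 (2700094K13Rik) to 2.68 (Sepp1), and the other selenoproteins from −4.00 (Gpx2) to 2.37 (Gpx1).

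The second comparison asked whether sufficient selenium and folate after weaning changed these mRNAs. In liver none of the 7 genes passed the study's threshold, an unadjusted P below 0.01 with a fold change above 1.5, where 0.117% of all probes did. In colon none passed either, where 0.168% did. Among the 19079 brighter probes the shares were 0.021% in liver and 0.0157% in colon. Within the 7 genes no unadjusted limma P was below 0.05 in either tissue, and over the whole array limma gave 0 probes with an adjusted P below 0.05 in either tissue, beside 877 in liver and 1228 in colon at an unadjusted P below 0.05. Both tissues had a higher mean on HF-low-suf for 5 of the 7 genes. Of all 41174 probes, 21161 did in liver and 19900 in colon, so this count is not read as a response to diet.

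The largest liver differences were those of Sepw1 (0.17, SE 0.16, unadjusted P = 0.316) and 2700094K13Rik (0.16, SE 0.20, unadjusted P = 0.428), both toward HF-low-suf. Sephs1 had the largest value toward HF-low-low (−0.16, SE 0.18). Leaving out 1 liver moved each by over 1.5 times, to 0.091 for Sepw1 (HF-low-suf replicate 2), 0.061 for 2700094K13Rik (HF-low-low replicate 5) and −0.042 for Sephs1 (HF-low-low replicate 1), so their order is not settled. Sepp1 differed by 0.11 in liver (SE 0.13, exact permutation P = 0.316) and by 0.10 in colon (SE 0.16, exact permutation P = 0.528). Its liver value was 0.052 without HF-low-suf replicate 4, and its colon value ran from −0.08 to 0.275 over the alternatives tried. In colon the largest difference with all arrays was that of Secisbp2, 0.15 (SE 0.14, exact permutation P = 0.190). Over the alternatives tried it ran from −0.077 to 0.387, and that of Sephs2 from −0.283 to 0.336, so the order in colon is not settled either.

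For 12 of the 14 gene and tissue pairs the 95% interval of the diet difference lay within 1.5-fold in both directions. The share of all probes with such intervals was not counted. Both pairs of Sephs1 are among the 12, but its probe was too dim for its intervals to bound a change. The exceptions were 2700094K13Rik in liver (−0.26 to 0.59) and Sephs2 in liver (−1.03 to 1.08). Scly had the narrowest liver interval, −0.24 to 0.29.

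Sephs2 was the gene whose diet value depended most on single arrays. With all mice it was 0.02 in liver (SE 0.49) and 0.03 in colon (SE 0.24). Without the HF-low-low replicate 3 liver the liver value was −0.49 (SE 0.25, unadjusted P = 0.0711, adjusted P = 0.944). Without the HF-low-suf replicate 2 colon the colon value was 0.29 (SE 0.13, unadjusted P = 0.0460, adjusted P = 0.986). Neither passed the threshold.

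**Figure D5:**
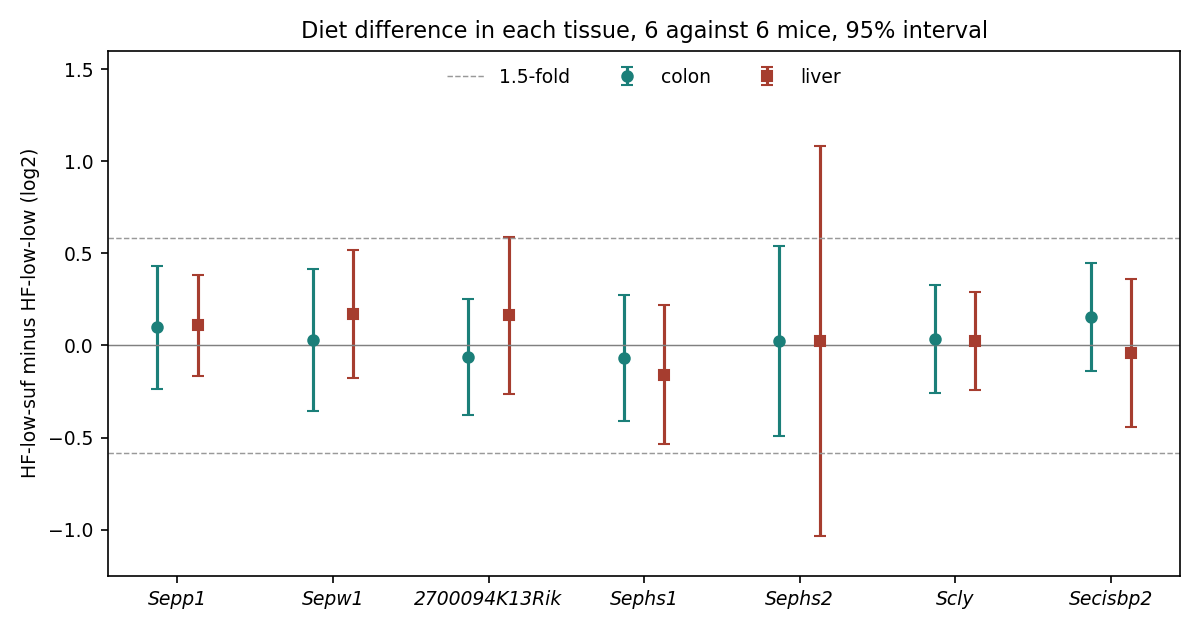
HF-low-suf minus HF-low-low on the log2 scale for the 7 genes in colon (circles) and liver (squares), 6 against 6 mice, with 95% intervals and dashed lines at 1.5-fold. All intervals include 0, and that of Sephs2 in liver, −1.03 to 1.08, is the widest.

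The difference between the tissues in the diet effect was tested in the fit over all arrays. None of the 7 genes passed an unadjusted P below 0.01 with a 1.5-fold difference, where 1.25% of all probes and 0.236% of the brighter ones did. Values ran from −0.20 (Secisbp2, SE 0.21) to 0.23 (2700094K13Rik, SE 0.23), and no unadjusted P was below 0.05.

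Among the 38 other genes of the pathway, none passed the diet threshold in liver or colon, and none had an unadjusted limma P below 0.05 in either tissue. Gpx1 differed by 0.03 in liver (SE 0.16) and −0.09 in colon (SE 0.14). Medians over the other selenoproteins were 0.05 in liver and 0.02 in colon, beside 0.01 and −0.01 over all probes.

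Genes whose replicate values ran closest to those of a member within a tissue were found by Pearson r over 12 arrays, after each diet mean was removed, among named probes well above background on all arrays of that tissue. Arrays share 1 reference pool and slides, so r is given as a description. In liver, Sepp1 ran closest to Pbef1 (0.931), Nt5c3 (0.837) and Agtrap (0.780). Scly ran with Phf14 (0.898), 2510006C20Rik (0.894) and Akr1c14 (0.882). For Sepw1 the closest in liver were Pfdn5 (0.949), Ndufs5 (0.929) and Cox7a2 (0.921), and for 2700094K13Rik they were 2310014G06Rik (0.948), H2afv (0.943) and Sms (0.941).

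Sephs2 in liver ran with Igfbp4 (0.985), Cebpa (0.984) and Gpld1 (0.957). All 3 were lowest in the same liver as Sephs2, HF-low-low replicate 3. Cebpa, a transcription factor of hepatocytes and adipocytes, was at −0.30 there and at 1.09 to 2.45 in the other 11 livers. Without that liver, r over 11 arrays was 0.919 for Igfbp4, 0.922 for Cebpa and 0.881 for Gpld1.

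Sephs1, and in liver Secisbp2, were too dim for this ranking. In colon the closest genes were others. Sepp1 ran with Dido1 (0.906), Txndc5 (0.889) and Gng10 (0.877), and Scly with Zfp95 (0.956), Rbed1 (0.942) and B3galt4 (0.942). Sephs2 ran with Ube2g2 (0.933), Cyp2c66 (0.922) and Ces5 (0.912). Those of Sepw1 were B230219D22Rik (0.961), Sdccag1 (0.952) and Myeov2 (0.951), those of 2700094K13Rik Uck2 (0.952), Cstf1 (0.935) and AA536717 (0.924), and those of Secisbp2 Marveld2 (0.920), 9830124H08Rik (0.918) and Slc17a5 (0.890). Among the 7 genes themselves r was between −0.790 (Sepw1 and Secisbp2) and 0.486 (Sepp1 and 2700094K13Rik) in liver, and between −0.684 (2700094K13Rik and Sephs2) and 0.590 (Sepw1 and Scly) in colon.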

How the data were processed

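Colon and liver RNA of 12 mice was measured on 24 Agilent arrays with 2 colours, 6 per group, on 6 slides that each held 1 array of every group. The authors deposited the Feature Extraction 9.5 output of each array. The intensity values used here, the mean signal and median local background of 45018 spots in Cy3 and Cy5, are as deposited by the authors and not normalized. The limma package is named in the submitters' processing notes.

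In limma 3.58.1 on R 4.3.3, background was corrected with normexp (offset 50) and loess was applied array by array. The 1639 control spots were left out, and outlier spots were weighted 0 and left out of the fit. Spots of a probe were averaged. For the diet, each tissue's 12 arrays were fitted with lmFit and eBayes, with the study's threshold. For the tissues, all 24 arrays were fitted with mouse as a block (duplicateCorrelation with statmod 1.5.0, correlation 0.158), since the labels give colon and liver of a replicate number as 1 mouse. Deviations of such pairs correlated by −0.122 to 0.455 across probes. Exact tests were two-sided, over 924 assignments or 4096 sign flips. Fits were tested on simulated data. Probe positions are in build mm7.

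The genes, lists and alternatives were chosen with earlier results of these data known. All 10 probes of the 7 genes are named, and from each list the 2 genes with the largest tissue difference in each direction among those called and well above background on at least 6 arrays of the higher tissue. An uncalled value that changed sign counted as reversed where it moved by more than its SE. Leaving out the mice of HF-low-suf replicates 1, 2, 4 and 5, and both mice with outlying Sephs2 values together, was chosen after seeing the data. The motifs, the 28 probes beside Sephs2 and the check of the reference channel were too. Litters are not given, so P-values measure the spread between these mice.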

Additional observations from a re-analysis of the deposited data

Results flagged for a closer look

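The log2 ratio of each of the 7 genes was examined for an array far from the other 5 in each of 4 groups, 28 groups in all, and 3 stood apart by Dixon's test at 95%. Chance flags about 1 in 20 groups. Sephs2 was at −1.76 in the liver of HF-low-low replicate 3, where the other 5 lay between 1.06 and 1.70. Sephs2 was at −2.67 in the colon of HF-low-suf replicate 2, where the others lay between −1.34 and −0.95. Sephs1 was at −0.49 in the colon of HF-low-suf replicate 6, where the others lay between −0.10 and 0.13. That spot was not well above background, and its Dixon value of 0.63 only just passed the limit of 0.625. The diet effect of none of the 7 genes differed between the tissues by the interaction test.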

How the results depend on the processing

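Sepp1, Scly and Sephs2 were called higher in liver under all 26 alternatives tried for that comparison. Secisbp2 was called in 14 of them, and 3 or 4 of the 7 genes were called in each. Without each mouse in turn the count was 3 to 4. Without the replicate block the count was 4, and with the mouse as a fixed replicate block it was 4. Median centring in place of loess called 2675 probes higher and 6472 lower in liver, beside 4688 and 5021, and the processed signals of Feature Extraction moved the median tissue difference of all probes from 0.02 to −0.19, with the same 4 genes called.

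For the diet, 0 of the 7 genes were called in liver under 26 alternatives and in colon under 25, the replicate number as a replicate block (0 in liver and 0 in colon), each scan day and the removal of each array included. For the difference between tissues 0 were called under 23 alternatives, the removal of each mouse included, but scan day and slide were not tried there. Over all probes, the diet calls moved from 48 in liver to between 2 (median centring) and 304 (without HF-low-low replicate 3), from 69 in colon to between 3 (the brighter probes) and 278 (within scan day 1), and for the difference between tissues from 514 to between 45 (the brighter probes) and 933 (without HF-low-low replicate 6). The replicate number is also the slide, and slides 1, 2 and 3 were scanned on one day and 4, 5 and 6 on the other. Same-numbered arrays of the 2 diets correlated above 0.1 across probes in 4 of 6 pairs in each tissue (median 0.185 in liver and 0.199 in colon).

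Uncalled diet values that changed sign and moved by more than their SE are given here, other sign changes were smaller, and the cause was not tested. In liver, Sepp1 was −0.032 within scan day 2, Sepw1 −0.005 without HF-low-suf replicates 1 and 2, and Sephs2 −0.494 without HF-low-low replicate 3 (−0.494 to 0.199 without each mouse in turn). Averaged over all probes of a gene, the liver value of Sephs1 was 0.048 and that of Scly −0.10. In colon within scan day 1, Sepp1 was −0.08, 2700094K13Rik 0.10, Sephs2 −0.28 and Secisbp2 −0.077, and under median centring 2700094K13Rik was 0.10. Without the mice of HF-low-suf replicates 1, 2, 4 and 5, the difference between tissues was −0.17 for Sepw1, 0.35 for Sephs1 and 0.22 for Secisbp2. The number of arrays and the dim probes of Sephs1, Scly and Secisbp2 limit the precision.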
